A study of Homo sapiens with 3 samples.

Results

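The genes examined here were 54 genes of ribosome biogenesis: MYC, subunits and factors of RNA polymerase I, proteins of the small nucleolar ribonucleoprotein (snoRNP) particles, nucleolar phosphoproteins and the processing and assembly factors of the pre-ribosome. They were taken by symbol from a table of 58381 genes, all 54 were found, and they were sorted into 9 roles by what each protein is known to do. RNA was measured by RNA sequencing of T24 cells, a human bladder carcinoma line, in 3 conditions with 1 library each. Ctrl cells carried the control pLKO.1 vector and were not irradiated. RT cells carried the control vector and received 10 Gy from a caesium source, and RT + shHDAC6 cells carried a lentiviral shRNA against HDAC6 and received the same 10 Gy. Per the labels, the lentivirus-infected cells had been selected with puromycin, and the clonality of the lines and the time between irradiation and harvest are not given in the sources used here. No unirradiated library with the HDAC6 shRNA was analysed here, so the effect of the shRNA without irradiation cannot be read from these data.

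Ribosomes are built in the nucleolus. RNA polymerase I transcribes the ribosomal DNA into a long precursor, box C/D and box H/ACA snoRNPs guide its methylation and pseudouridylation, the small subunit processome folds and cuts its 5' part, and further sets of factors assemble and export the pre-40S and pre-60S particles. MYC, a transcription factor that binds the E-box CACGTG as a dimer with MAX, is known to activate many of these genes, and growing tumour cells express them strongly. Ionising radiation is known to silence RNA polymerase I at damaged ribosomal DNA for a time.

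With 1 library per condition there was no test and no replicate check. A gene was called higher or lower where its counts, scaled between libraries by edgeR's trimmed mean of M values (TMM), were at least 1.5-fold apart (0.58 on the log2 scale) and the 95% counting interval of the ratio left out a ratio of 1. These intervals cover the error of counting reads only and say nothing of how 2 cultures of the same condition would differ. In a bulk library, a change in the make-up of the cell population and a change of RNA per cell cannot be told apart.

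The libraries held 41811165 (Ctrl), 35959265 (RT) and 35424086 (RT + shHDAC6) counts, and mitochondrial RNA took 3.75%, 6.09% and 5.51% of them. Ctrl thus differed from both irradiated libraries in depth and in mitochondrial share. HDAC6, the gene that the shRNA targets, had 3098 (Ctrl), 2383 (RT) and 2170 (RT + shHDAC6) counts. Its log2 ratio of RT + shHDAC6 against RT was -0.20 (95% counting interval -0.28 to -0.11), which is 87.2% of the RT level. In these counts the label of this library is thus borne out only by a small difference in HDAC6 RNA. The study reported lower HDAC6 mRNA by qPCR and lower HDAC6 protein by Western blotting in its shHDAC6 T24 cells. The log2 ratio of HDAC6 in RT against Ctrl was 0.057 under TMM and -0.16 with library totals. All 6 epithelial markers were above 3 counts in each library, whereas 4 uroplakin genes that mark differentiated urothelium had between 0 and 18 counts. The summed level of 7 blood and endothelial markers was 26.4 (Ctrl), 17.2 (RT) and 21.5 (RT + shHDAC6) TMM-scaled CPM, that is, counts relative to the scaled library size. Of these markers 7, 6 and 6 were above 3 counts, and none of the 7 was above 489. The 7 urothelial markers summed to 80.2, 62.0 and 30.6 TMM-scaled CPM, and KRT7, a keratin of simple epithelia, had 3533, 3854 and 597 counts. KRT7 was the single epithelial marker below 0 in RT + shHDAC6 against RT. The other 5 of the 6 lay above 0, and the median log2 ratio of the 6 was 0.29. The part of such differences in the results was not tested.

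The first comparison asked which RNAs differed between irradiated and unirradiated control cells. The ribosome biogenesis genes lay to the higher side in RT. Of the 54 genes, 27 were called higher in RT relative to Ctrl and 0 were called lower, beside 16.3% called higher and 8.16% called lower among the 12113 genes with a mean of at least 100 counts. All 54 genes passed that count minimum. Their median log2 ratio was 0.58, a 1.49-fold difference, with a range from -0.18 for FBL to 1.35 for RRS1, and the median over all genes was 0.073. The interval lay above a ratio of 1 for 49 of the 54, below it for 2 (FBL and NPM1) and around it for 3 (NHP2, NOP10 and NMD3), and over all genes tested 45.3% of the intervals lay above and 33.0% below. Together the 54 genes took 310093 counts or 0.742% of the Ctrl library (95% exact binomial interval 0.739 to 0.744), 322001 counts or 0.895% of the RT library (0.892 to 0.899) and 346753 counts or 0.979% of the RT + shHDAC6 library (0.976 to 0.982). These shares are relative to the library totals, with no TMM scaling, and they were higher in both irradiated libraries.

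**Figure D1:**
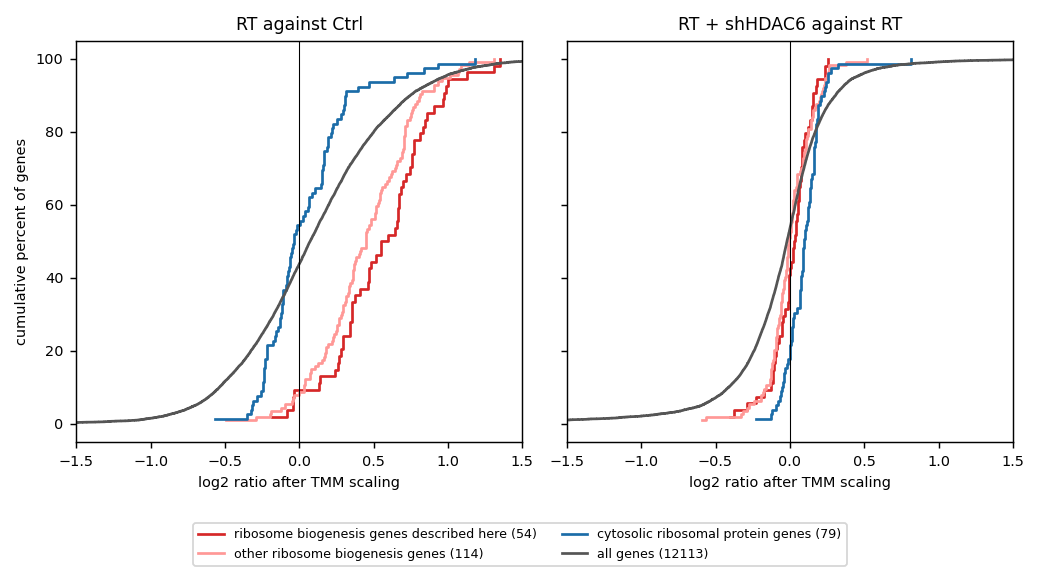
Cumulative percent of genes (vertical axis) against the log2 ratio after TMM scaling (horizontal axis) for RT against Ctrl (left) and RT + shHDAC6 against RT (right), with 1 line each for the 54 ribosome biogenesis genes, 114 other ribosome biogenesis genes, 79 cytosolic ribosomal protein genes and all 12113 genes. On the left the line of the 54 genes lies to the right of that of all genes, with medians of 0.58 and 0.073, and on the right the lines run close together around 0.

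The size of this difference moved with the scaling. TMM placed the log2 ratios of RT against Ctrl 0.22 above those from library totals, where the median of the 54 genes was 0.36 and that of all genes was -0.14. Upper quartile scaling gave medians of 0.52 and 0.017, and the median of ratios gave 0.63 and 0.13. Under all 4 scalings 47 of the 54 genes stayed above 0 and 2 stayed below it (FBL and NOP10), and the sign of NPM1, NHP2, GAR1, DDX10 and NMD3 turned with the scaling. The threshold also cut through the middle of the genes: NOLC1 at 0.60 and DKC1 at 0.64 lay just inside it, and UBTF and NOP14, each at 0.55, and MYC at 0.52 lay just outside. At a threshold of 1.2-fold, 45 of the 54 genes were called higher, beside 34.4% of all genes.

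Levels between genes were compared per length, as TPM, that is, counts divided by the exon bases of each gene and scaled to the same total in each library. TPM was not among the 4 scalings and gives lower ratios of RT to Ctrl than TMM. By TPM, NOB1 (149 in Ctrl and 143 in RT), WDR12, RRN3, WDR75, SDAD1 and EBNA1BP2 were lower in RT, although they stayed above 0 under the 4 scalings. NPM1 was the most abundant of the 54 in Ctrl with 882 TPM, followed by NCL with 497 TPM, and both kept these places when the length of the canonical transcript was used instead. PPAN with 4.0 TPM and NOP2 with 4.6 TPM were the least abundant in Ctrl, and both overlap another gene on the same strand over about as many exon bases as not. NCL and NPM1, which encode the abundant nucleolar proteins nucleolin and nucleophosmin, together made up 35.2% (Ctrl), 30.5% (RT) and 32.4% (RT + shHDAC6) of the 54 genes' counts. Without them the other 52 genes took 0.481%, 0.623% and 0.661% of the libraries, so the higher share in the irradiated libraries was also present in the rest.

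MYC itself had 4415 (Ctrl), 4675 (RT) and 5438 (RT + shHDAC6) counts, which is 77.9, 89.2 and 107 TPM. It was lowest in Ctrl and highest in RT + shHDAC6. Its log2 ratio of RT against Ctrl was 0.52 (0.46 to 0.58), short of the 1.5-fold threshold, and placed it at percentile 80.9 of all genes tested. With library totals this ratio was 0.30, and the TPM values, which carry no TMM scaling, also differ less between Ctrl and RT. The 3 genes of the set whose levels over the 3 libraries lay nearest to those of MYC, after each gene's log2 levels were centred, were WDR43 with 5746, 5847 and 6797 counts, BRIX1 with 2081, 2132 and 2654, and PNO1 with 1026, 1200 and 1303, with summed squared differences of 0.0022, 0.0048 and 0.011. The 3 libraries give only 2 free differences per gene, so this likeness is a description of these libraries.

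Of the 54 genes, 45 had an entry in the RefSeq promoter table (GRCh38.p14; 250 bases before to 50 bases after the transcription start), and BOP1, DDX18, MYC, NOLC1, NOP58, POLR1E, RRP12, RRS1 and TCOF1 had none. The E-box CACGTG, which reads the same on both strands, was present in 17 of the 45 windows (37.8%, 95% exact binomial interval 23.8 to 53.5). It was present in 10.2% of 9017 windows of protein-coding genes past the count minimum and in 7.43% of all 27305 windows. Of the 19 matches in these genes, 15 started within 50 bases of the transcription start. The 8 genes called higher in RT whose window held the E-box are given here with FBL, the gene with the lowest ratio, to show the shared letters and how different the flanks are. The E-box is in capitals, each sequence reads 5' to 3' on the strand of the gene, and IMP4, which has 2 matches, is shown at the match nearer to the start.
BYSL: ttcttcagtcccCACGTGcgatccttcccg
IMP4: ttctcccggaccCACGTGgaagcggcactc
MRTO4: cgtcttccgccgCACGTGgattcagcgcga
MYBBP1A: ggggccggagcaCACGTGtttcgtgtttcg
PES1: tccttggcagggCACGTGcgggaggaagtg
PNO1: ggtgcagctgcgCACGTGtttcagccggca
RRP9: gggttcagctgcCACGTGagttctgcggcc
UTP20: cttttttccgtcCACGTGacccactcaggc
FBL: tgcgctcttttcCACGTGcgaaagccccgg

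These stretches lie on GRCh38.p14 at chr6:41921515-41921544 (plus strand) for BYSL, chr2:130342900-130342929 (plus) for IMP4, chr1:19251807-19251836 (plus) for MRTO4, chr17:4555340-4555369 (minus) for MYBBP1A and chr22:30591880-30591909 (minus) for PES1. Those of PNO1, RRP9, UTP20 and FBL lie at chr2:68157885-68157914 (plus), chr3:51941892-51941921 (minus), chr12:101280083-101280112 (plus) and chr19:39846356-39846385 (minus). The first base of the E-box lay 28 bases after the annotated start in BYSL, 15 in IMP4, 14 in MRTO4, 27 in MYBBP1A, 13 in PES1, 9 in PNO1 and 6 in FBL. In RRP9 and UTP20 it lay before the start, at -5 and -10. The median log2 ratio of RT against Ctrl was 0.55 in the 17 genes with it and 0.60 in the 28 genes without it. Of the 17 genes 8 were called higher and of the 28 genes 14, beside 16.3% of all genes.

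Across gene groups, the E-box was found in 26.7% of 101 windows of other ribosome biogenesis genes and in 4.76% of 63 windows of cytosolic ribosomal protein genes. In the shorter window from 100 bases before to 50 bases after the start, its share was 33.3% in the 45 genes and 4.44% in all promoters. CCGGAA, the core of the sites bound by ETS factors, was searched on both strands for comparison, and no match of it can overlap a CACGTG. It was present in 48.9% of the 45 windows, 58.4% of the other ribosome biogenesis genes, 34 of the 63 windows of ribosomal protein genes and 32.1% of the protein-coding genes past the count minimum. A match of letters is a description of the window and does not show that a factor was bound in these cells.

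RNA polymerase I and its factors had a median log2 ratio of 0.67 in RT against Ctrl. Of the 8 genes 5 were called higher, beside 16.3% of all genes, and all 8 lay above 0 in all 4 scalings. POLR1A, the largest subunit, had 6748 (Ctrl), 7899 (RT) and 8536 (RT + shHDAC6) counts, a log2 ratio of RT against Ctrl of 0.66 (0.62 to 0.71). POLR1B, the second largest subunit, had 2632, 3104 and 3408 counts in the same order and a ratio of 0.67 (0.60 to 0.75). The 2 catalytic subunits thus kept their proportion, and the ratio of their counts was 0.390 (Ctrl), 0.393 (RT) and 0.399 (RT + shHDAC6). POLR1C, a subunit shared with RNA polymerase III, had 767, 1107 and 1191 counts and a higher ratio of 0.96 (0.83 to 1.10). POLR1E, which encodes the PAF53 subunit, had 2083, 1966 and 2316 counts and a lower ratio of 0.35 (0.26 to 0.44). The subunits therefore differed among themselves by more than the counting error.

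MYBBP1A stood out among the polymerase I factors. It encodes a nucleolar protein that binds MYB and takes part in ribosomal RNA transcription and processing, and lies at chr17:4538897-4555386 (minus strand, GRCh38). It had 8455 (Ctrl), 15494 (RT) and 15106 (RT + shHDAC6) counts, so both irradiated libraries were well above Ctrl. Its log2 ratio was 1.31 (1.27 to 1.35) in RT and 1.21 (1.17 to 1.25) in RT + shHDAC6, each against Ctrl. TCOF1, whose protein treacle joins polymerase I transcription to pre-rRNA modification and is known to take part in the nucleolar response to DNA breaks, had 8850, 10751 and 10354 counts and a ratio of 0.72 (0.68 to 0.76) in RT against Ctrl. Below the threshold were UBTF, the upstream binding factor of the ribosomal DNA promoter, with 6421, 6958 and 6732 counts, and RRN3, the factor TIF-IA that brings polymerase I to its promoter, with 2689, 2440 and 2643 counts. Their ratios of RT against Ctrl were 0.55 and 0.30.

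Of the 4 box C/D snoRNP genes 2 were called higher in RT, beside 16.3% of all genes, and the 4 differed widely. NOP56, a core protein of the particle (chr20:2652593-2658393, plus strand), had 5105 (Ctrl), 7400 (RT) and 7458 (RT + shHDAC6) counts, a log2 ratio of RT against Ctrl of 0.97 (0.92 to 1.02). NOP58, its paired core protein, had 5844, 5976 and 6054 counts and a ratio of 0.47 (0.41 to 0.52). FBL, the methyltransferase fibrillarin of the same particle (chr19:39834458-39846379, minus strand), had 5518, 3594 and 3944 counts and a ratio of -0.18 (-0.24 to -0.12). RRP9, the protein specific to the U3 particle, had 1540, 2131 and 2355 counts and a ratio of 0.90 (0.81 to 0.999). NOP56 was thus higher and FBL lower in RT although both proteins sit in the same particle.

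In the box H/ACA snoRNPs 1 of 4 genes was called higher in RT (25%) and 0 lower, beside 16.3% and 8.16% of all genes. The median log2 ratio was 0.050 under TMM and -0.17 with library totals. For all genes it was 0.073 and -0.14, so this group lay near all genes. DKC1, the pseudouridine synthase dyskerin on the X chromosome, had 7508 (Ctrl), 8666 (RT) and 9107 (RT + shHDAC6) counts and a log2 ratio of RT against Ctrl of 0.64 (0.60 to 0.69). NHP2 had 3300, 2374 and 2721 counts and a ratio of -0.040 (-0.12 to 0.037). NOP10 had 1316, 920 and 911 counts and a ratio of -0.081 (-0.20 to 0.041), and GAR1 had 1228, 1001 and 1138 counts and a ratio of 0.14 (0.018 to 0.26). The 3 small partner proteins of dyskerin therefore lay apart from the enzyme itself.

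NCL (chr2:231453531-231483641, minus strand), whose protein nucleolin binds pre-rRNA and nucleolar chromatin, had 41086 (Ctrl), 49328 (RT) and 60735 (RT + shHDAC6) counts. Its log2 ratio in RT against Ctrl was 0.70 (0.68 to 0.72), and RT + shHDAC6 lay a further 0.24 (0.22 to 0.25) above RT. NOLC1, the snoRNP chaperone Nopp140, had 10652, 11938 and 12467 counts and ratios of 0.60 and 0.00046. NPM1 (chr5:171387116-171411810, plus strand), whose protein nucleophosmin gives the outer layer of the nucleolus its structure, had 67969, 48779 and 51769 counts and ratios of -0.043 and 0.024. The sign of NPM1 in RT against Ctrl turned with the scaling. DDX21, an RNA helicase that acts in polymerase I transcription and pre-rRNA processing, had 16387, 15503 and 16920 counts and a ratio of 0.36 (0.32 to 0.39) in RT against Ctrl.

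The small subunit processome genes had a median log2 ratio of 0.61 in RT against Ctrl. Of the 10 genes 5 were called higher (RRP12, UTP20, IMP4, HEATR1 and EMG1), beside 16.3% of all genes. All 10 lay above 0, although DDX10 turned below 0 with library totals. RRP12, which acts in the maturation and export of both subunits, had 3003 (Ctrl), 4413 (RT) and 3935 (RT + shHDAC6) counts, a log2 ratio of RT against Ctrl of 0.99 (0.92 to 1.06). HEATR1, a large scaffold protein of the early processome, had 6201, 7677 and 8380 counts and a ratio of 0.74 (0.69 to 0.79). UTP20, a second large scaffold, had 4467, 5889 and 6137 counts and a ratio of 0.83 (0.78 to 0.89). In the rest of this group the genes were spread widely. IMP4, a component of the U3 particle, had 2194, 2770 and 3034 counts and a ratio of 0.77, and its partner IMP3 had 959, 921 and 1019 counts and a ratio of 0.38. The methyltransferase EMG1 was at 0.67, and NOP14, WDR43, WDR75 and the helicase DDX10 had ratios of 0.55, 0.46, 0.26 and 0.13.

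Among the 5 genes of late 40S assembly, 3 were called higher in RT, beside 16.3% of all genes. BYSL, which encodes bystin, had 1087 (Ctrl), 1443 (RT) and 1591 (RT + shHDAC6) counts and a log2 ratio of RT against Ctrl of 0.84 (0.73 to 0.96). PNO1, the partner of the endonuclease NOB1, had 1026, 1200 and 1303 counts and a ratio of 0.66 (0.54 to 0.78). TSR1, a factor that blocks early subunit joining, had 7485, 8729 and 8531 counts and a ratio of 0.66 (0.61 to 0.70). NOB1, which makes the last cut of 18S rRNA, and LTV1, an assembly factor, were at 0.26 and 0.36 and below the threshold. Their counts in the 3 libraries were 2902, 2579 and 2978 for NOB1 and 648, 614 and 639 for LTV1.

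The 18 genes of 60S assembly and export had a median log2 ratio of 0.58 in RT against Ctrl. Of these genes 9 were called higher, beside 16.3% of all genes, and 17 lay above 0 in all 4 scalings. RRS1, which helps bring the 5S particle into the pre-60S, had 886 (Ctrl), 1673 (RT) and 1547 (RT + shHDAC6) counts. Its log2 ratio of RT against Ctrl, 1.35 (1.23 to 1.47), was the highest of the 54 and lay at percentile 98.8 of all genes tested. RRP1 (NNP-1), a nucleolar protein of 60S processing, had 1563, 2531 and 2625 counts and a ratio of 1.13 (1.04 to 1.22). These genes, with MYBBP1A and PPAN, were the 4 called higher at a threshold of 2-fold, which 4.35% of all genes passed. PPAN, an assembly factor of the Brix family, rested on only 106, 157 and 150 counts, and its interval of 0.64 to 1.37 was accordingly wide.

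PES1, BOP1 and WDR12 encode the PeBoW complex, which is needed for processing of the pre-rRNA of the large subunit. PES1 had 4165 (Ctrl), 5213 (RT) and 6026 (RT + shHDAC6) counts, and BOP1 had 4413, 5518 and 5319. Both had a log2 ratio of 0.76 in RT against Ctrl. WDR12 had 3924, 3534 and 3966 counts and a ratio of 0.28 (0.22 to 0.35). The third partner of the complex thus lay apart from the other two.

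The other called genes of the 60S group were DDX56 at 0.86, NOP16 at 0.81, MRTO4 at 0.77 and NIP7 at 0.68. DDX56 is a nucleolar helicase, MRTO4 is the counterpart of the ribosomal stalk protein in the nucleolus, and NIP7 and NOP16 are assembly factors. Their counts in the 3 libraries were 2913, 3917 and 3156 for DDX56, 1160, 1505 and 1847 for NOP16, 2834, 3583 and 3836 for MRTO4, and 1645, 1951 and 2308 for NIP7, so DDX56 was highest in RT and the other 3 in RT + shHDAC6. Below the threshold were GNL3 (nucleostemin) at 0.48, BRIX1 at 0.47, the helicase DDX18 at 0.41, the GTPase GNL2 at 0.34, the rRNA methyltransferase NOP2 at 0.34, EBNA1BP2 at 0.30, WDR12 at 0.28 and SDAD1 at 0.24. NMD3, the export adaptor of the 60S subunit, had 3015, 2173 and 2256 counts and a ratio of -0.037 (-0.12 to 0.043). It was the only gene of the 60S group with a ratio below 0 in RT against Ctrl under TMM.

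The count ratio of 2 genes within a library does not depend on the scaling between libraries, so partner proteins of the same complex were compared in this way. The pairs were chosen after the values were seen. The ratio of FBL to NOP56 was 1.08 (Ctrl), 0.486 (RT) and 0.529 (RT + shHDAC6), a log2 change of -1.15 (-1.23 to -1.07) in RT against Ctrl. The ratio of NOP58 to NOP56 changed by -0.50 (-0.58 to -0.43). Relative to DKC1, the log2 changes were -0.68 for NHP2, -0.72 for NOP10 and -0.50 for GAR1, and none of the 3 intervals held 0. NPM1 had 1.65 counts per count of NCL (Ctrl), 0.989 (RT) and 0.852 (RT + shHDAC6). In contrast, the ratio of BOP1 to PES1 was 1.06 in both Ctrl and RT, with a log2 change of -0.0014 (-0.083 to 0.081), and that of POLR1B to POLR1A changed by 0.011 (-0.078 to 0.099).

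**Figure D2:**
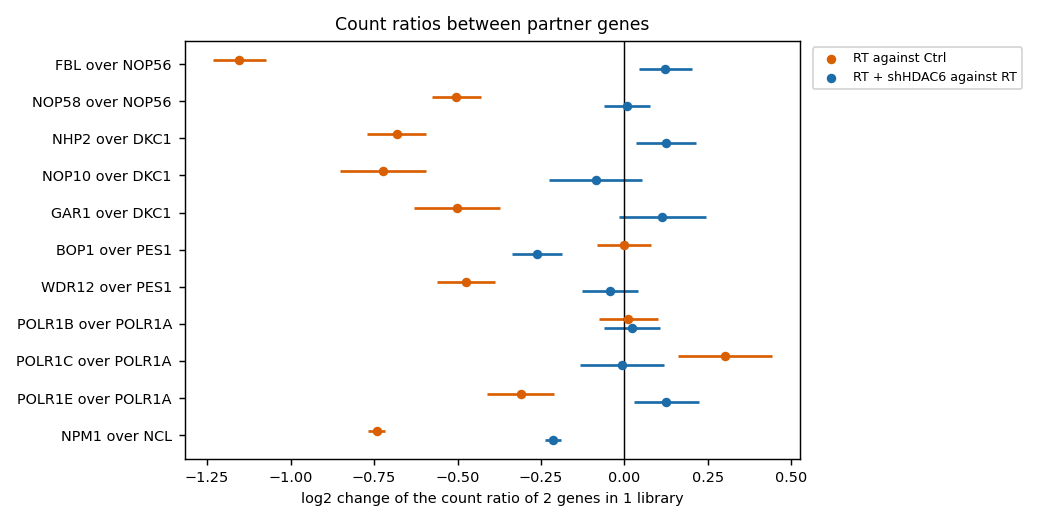
Log2 change (points) of the count ratio between partner genes, with its 95% counting interval (bars), in RT against Ctrl (orange) and RT + shHDAC6 against RT (blue). In RT against Ctrl the ratio of FBL to NOP56 lies lowest at -1.15 and those of BOP1 to PES1 and POLR1B to POLR1A lie near 0, and in RT + shHDAC6 against RT the plotted ratios lie between -0.26 and 0.13.

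The second comparison asked how irradiated cells with the HDAC6 shRNA differed from irradiated control cells. The ribosome biogenesis genes differed little between these libraries. Of the 54 genes 0 were called higher and 0 lower, beside 2.7% and 5.18% of all genes tested. Their median log2 ratio was 0.033, from -0.40 for NOP2 to 0.25 for BRIX1, and the median over all genes was -0.019. The interval lay above a ratio of 1 for 18 genes, below it for 11 and around it for 25. Over all genes tested, 25.2% of the intervals lay above and 33.0% below. These interval counts are those under TMM, which shifted the log2 ratios of this comparison by -0.084 relative to library totals. With library totals the median of the 54 genes was 0.12 and that of all genes 0.064. Under all 4 scalings 31 of the 54 genes stayed above 0 and 12 stayed below it.

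The largest differences among well-counted genes were on the lower side. DDX56 had 3917 (RT) and 3156 (RT + shHDAC6) counts, a log2 ratio of -0.37 (-0.44 to -0.31). EMG1 had 1033 and 883 counts and a ratio of -0.29 (-0.42 to -0.16). NOP2 had the lowest ratio but only 187 and 148 counts, with an interval from -0.72 to -0.081. These 3 genes were the ones called lower at a threshold of 1.2-fold, which 17.5% of all genes passed on that side. RRP12 at -0.23, RRS1 at -0.18, TCOF1 at -0.12, BOP1 at -0.12 and UBTF at -0.11 also had intervals below 0 under TMM. With library totals these ratios were -0.14, -0.091, -0.033, -0.031 and -0.026 in the same order, so the place of these intervals depends on the scaling. On the higher side were BRIX1 at 0.25 (0.17 to 0.34), with 2132 (RT) and 2654 (RT + shHDAC6) counts, NCL at 0.24, NOP16 at 0.23, NIP7 at 0.18 and POLR1E at 0.17. MYC was at 0.16 (0.099 to 0.21).

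Within the PeBoW complex the 2 genes that had matched in RT against Ctrl differed here. BOP1 was at -0.12 and PES1 at 0.15, and the count ratio of BOP1 to PES1 was 1.06 (RT) and 0.883 (RT + shHDAC6), a log2 change of -0.26 (-0.34 to -0.19). The ratio of NPM1 to NCL changed by -0.21 (-0.24 to -0.19). For the snoRNP partners the changes were smaller, at 0.12 (0.043 to 0.20) for FBL to NOP56 and 0.13 (0.035 to 0.22) for NHP2 to DKC1. The ratio of RRP12 to NOB1, which are not plotted as partners, changed by -0.37 (-0.47 to -0.27). This pair too was chosen after the values were seen, and its change only restates RRP12 at -0.23 and NOB1 at 0.15.

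The third comparison set RT + shHDAC6 against Ctrl, and it shares a library with each of the other two. In it 27 of the 54 genes were called higher and 0 lower, beside 13.7% and 10.2% of all genes tested, and the median log2 ratio was 0.58. At 1.2-fold 47 of the 54 were called higher, beside 32.9% of all genes, and at 2-fold 5, beside 3.45%. MYC with 0.67 (0.62 to 0.73), BRIX1 with 0.72 and WDR43 with 0.62 were called in this comparison, and in RT against Ctrl their ratios were 0.52, 0.47 and 0.46. DDX56 with 0.49, TSR1 with 0.56 and EMG1 with 0.38 were not called in it, and in RT against Ctrl their ratios were 0.86, 0.66 and 0.67. Since only the same single libraries enter, these shifts across the threshold rest on the ratios between RT + shHDAC6 and RT given above.

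Other genes of the pathway were read from a list of 115 further ribosome biogenesis genes, of which 114 passed the count minimum. In RT against Ctrl 39 of them (34.2%) were called higher and 0 lower, beside 16.3% and 8.16% of all genes. The median log2 ratio of the 114 was 0.45. The 3 highest were NOL6 with 4529 (Ctrl), 8315 (RT) and 8416 (RT + shHDAC6) counts and a ratio of 1.31, PDCD11 at 1.14 and DHX37 at 1.09, which all encode components of the small subunit processome. The 3 lowest were RSL24D1 at -0.49, RIOK3 at -0.29 and NSA2 at -0.19. RSL24D1 and NSA2 are pre-60S factors and RIOK3 is a kinase of the cytoplasmic pre-40S. Of the remaining polymerase I subunits, POLR1G was at 0.96 and POLR1H at 0.70, whereas POLR1F was at 0.11 and POLR1D, shared with polymerase III, at -0.095.

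In RT + shHDAC6 against RT, 0 of the 114 further genes were called higher and 1 lower (0.877%), beside 2.7% and 5.18% of all genes. The median of the 114 was -0.0073. The gene called lower was the helicase DDX47, at -0.59, with 188 (Ctrl), 198 (RT) and 137 (RT + shHDAC6) counts. BUD23, the methyltransferase of 18S rRNA, had 3760, 4094 and 2894 counts and a ratio of -0.56, and SBDS, the factor of late 60S maturation, was at -0.33. The highest were TEX10 at 0.52, with 2263, 1828 and 2737 counts, the exosome subunit EXOSC8 at 0.38 and ZNHIT3 at 0.26.

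The structural genes of the ribosome lay near the median of all genes. Of 79 cytosolic ribosomal protein genes, 5 were called higher in RT (6.33%) and 0 lower, beside 16.3% and 8.16% of all genes. Their median log2 ratio was -0.035. With library totals their median was -0.25, beside 0.36 for the 54 biogenesis genes, and since a scaling moves all genes alike, the gap between the medians was the same. In RT + shHDAC6 against RT their median was 0.095, with 64 of 79 above 0, beside 5636 of the 12113 genes tested. Of the 79, 1 was called higher (1.27%) and 0 lower, beside 2.7% and 5.18% of all genes. The 1 was RPL24, at 0.81 with 9743 (Ctrl), 5658 (RT) and 10368 (RT + shHDAC6) counts.

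Among the other RNA polymerases, 0 of 12 polymerase II subunits were called higher or lower in RT against Ctrl, beside 16.3% and 8.16% of all genes. Their median was 0.11, near the 0.073 of all genes, and a list of 12 is small for such a count. Of 13 genes of polymerase III and its factors, 3 were called higher and 1 lower (23.1% and 7.69%), beside 16.3% and 8.16% of all genes, with a median of 0.42. The 3 were the subunits POLR3B at 0.89, POLR3K at 0.85 and POLR3E at 0.71, and the 1 was POLR3GL at -0.91 with 173 (Ctrl), 68 (RT) and 95 (RT + shHDAC6) counts.

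In the MYC network, 9 of 11 genes passed the count minimum, 0 were called higher in RT and 2 lower (22.2%), beside 16.3% and 8.16% of all genes. MXI1, a partner of MAX that opposes MYC, had 2634 (Ctrl), 956 (RT) and 872 (RT + shHDAC6) counts, a log2 ratio of RT against Ctrl of -1.03. MXD4, of the same family, had 2258, 962 and 1059 counts and a ratio of -0.80. These 2 genes were therefore lower in each irradiated library than in Ctrl, under all 4 scalings, but the list went both ways. Of the 9 genes, 6 lay above 0 in RT against Ctrl under TMM and 3 below. Under all 4 scalings 1 stayed above 0 and 3 stayed below. MAX had 1067, 894 and 1229 counts, with ratios of 0.18 in RT against Ctrl and 0.40 in RT + shHDAC6 against RT. MXD1, of the same family as MXI1 and MXD4, lay on the other side from them, at 0.52 in RT against Ctrl. MYCN had 0 counts in all 3 libraries, which allows up to 3 counts or 0.0662 to 0.0894 TMM-scaled CPM.

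Of 18 MYC targets outside the ribosome that passed the count minimum, 7 were called higher in RT (38.9%) and 0 lower, beside the same 16.3% and 8.16% of all genes, with a median of 0.30. TFRC, the transferrin receptor, had 15250 (Ctrl), 32998 (RT) and 34898 (RT + shHDAC6) counts and a ratio of 1.55. CAD, the first enzyme of pyrimidine synthesis, had 9128, 13055 and 12903 counts and a ratio of 0.95. LDHA, lactate dehydrogenase A, had 79141, 40550 and 40278 counts and a ratio of -0.53, the lowest of these targets and short of the threshold.

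Free ribosomal proteins are known to bind MDM2, a ubiquitin ligase, when ribosome assembly is disturbed. Of 11 genes of nucleolar stress, 1 was called higher in RT and 1 lower (9.09% each), beside 16.3% and 8.16% of all genes, and 8 lay below 0 with a median log2 ratio of -0.22. MDM2 had 4174 (Ctrl), 2637 (RT) and 2918 (RT + shHDAC6) counts and a log2 ratio of -0.23 in RT against Ctrl. GADD45A, a damage-response gene, had 1061, 1678 and 1954 counts in the same order and was called higher in RT with a ratio of 1.10, and BBC3, the cell death gene PUMA, had 235, 59 and 100 counts and was called lower with a ratio of -1.56. CDKN1A, which encodes the cell cycle inhibitor p21, had 2793, 1441 and 2093 counts, with ratios of -0.52 in RT against Ctrl and 0.48 in RT + shHDAC6 against RT.

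Base composition and length were set beside the ratios. Across the 54 genes, the GC content of the canonical transcript and the log2 ratio of RT against Ctrl had Pearson's r of 0.46 and Spearman's rho of 0.51, and across 10936 protein-coding genes r was 0.20 and rho 0.23. The genes share their libraries and are not independent replicates, so these values are descriptions. In RT + shHDAC6 against RT, the sign of the GC relation for the 54 genes was the opposite, with r of -0.33 and rho of -0.29, beside 0.030 and -0.023 across all protein-coding genes. For the log10 length of the canonical transcript, r in RT against Ctrl was 0.28 and rho 0.19 across the 54 genes, and -0.11 and -0.12 across all protein-coding genes. The 29 genes with GC above 47.5%, the median of all protein-coding genes, had a median log2 ratio of 0.76 and the 25 at or under it had 0.46, whereas all protein-coding genes had 0.20 and -0.031. The medians of the 54 genes were above those of all protein-coding genes on both sides of the GC median. The 9 genes with a canonical transcript of at most 1500 bases, among them FBL, NPM1 and the small H/ACA proteins but also POLR1C and NOP16, which were called higher, had a median of 0.14, and the 45 longer ones had 0.66. For all protein-coding genes these medians were 0.12 and 0.074. The 9 shorter genes therefore lay near all genes of that length, and the 45 longer ones lay above theirs. The part of GC content and length in the ratios was not tested.

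**Figure D3:**
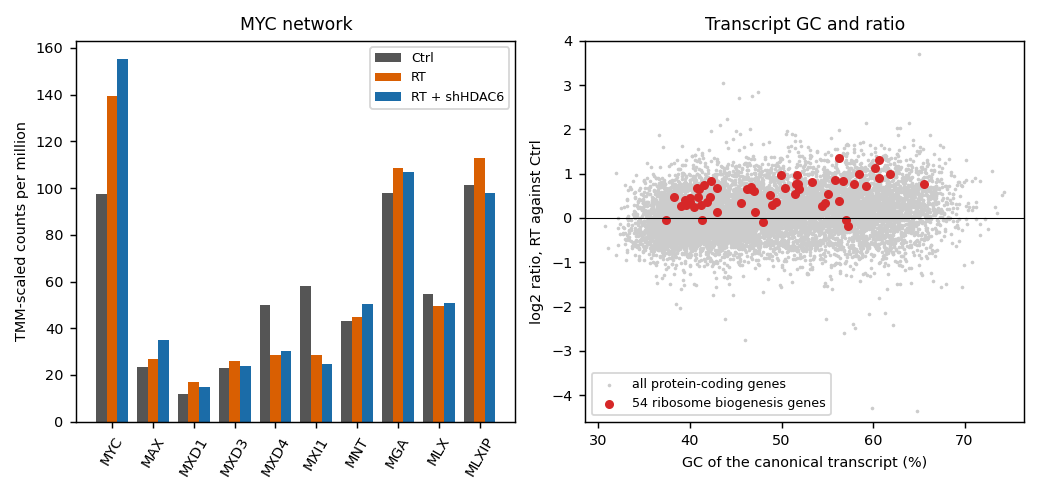
Left, TMM-scaled CPM (vertical axis) of MYC and 9 genes of its network in the 3 libraries, with 1 bar per library, in which MXD4 and MXI1 are higher in Ctrl than in both irradiated libraries. Right, the log2 ratio of RT against Ctrl (vertical axis) against the GC content of the canonical transcript in percent (horizontal axis) for the 54 genes and for all protein-coding genes, in which the 54 genes have a Pearson's r of 0.46.

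Some of these genes share sequence with others, and the handling of strand and of reads that match several places is not given in the sources used here. NOP2 shares 54.4% of its exon bases with an annotated gene on the same strand, which had 0 counts in every library, and PPAN shares 49.2% with P2RY11 and the readthrough gene PPAN-P2RY11. LTV1 shares 34.7%, RRS1 11.3% and EMG1 11.2%. Without these 5 genes, 24 of 49 were called higher in RT and 0 lower, beside 16.3% and 8.16% of all genes. IMP3 shares 58.1% and EMG1 55.5% of their exon bases with genes on the other strand. NPM1 has 49 annotated pseudogenes, of which 34 had counts, and they held 4.98% (Ctrl), 4.02% (RT) and 3.61% (RT + shHDAC6) of the summed counts of gene and pseudogenes. For RRN3 the pseudogenes held 11.1%, 15.7% and 13.9%, and the values of these genes are less certain for that reason.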

How the data were processed

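RNA-seq reads of 3 T24 libraries, 1 each for Ctrl, RT and RT + shHDAC6, were trimmed with cutadapt, aligned to GRCh38 with STAR (2.6.1a in the submitters' processing notes) and counted on GENCODE release 28 genes with featureCounts. The authors deposited whole-number read counts per gene without normalisation. The study's methods and the labels name different library kits, and the labels give 10 Gy where the methods give a range. The study's text calls Ctrl untreated cells, and the labels name a control vector.

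Groups were taken from the labels. Symbols and positions came from GENCODE release 44 (GRCh38), which matched 57754 of the 58381 identifiers. Library scaling used TMM (edgeR 4.0.16, R 4.3.3), and log2 ratios, 95% Clopper-Pearson intervals and TPM were computed in Python 3.11.15 (pandas 2.3.3, scipy 1.17.1). A count of 0 was set to 0.5, genes with a mean of at least 100 counts were compared, and a call needed a 1.5-fold difference and an interval without a ratio of 1. With 1 library per condition no model of replicate spread can be fitted, so neither edgeR's nor another test was run. NOISeq, which the study used, was not run because its noise without replicates also covers counting error only. The calculation was tested on simulated data. The 54 genes, their roles and the other gene lists were chosen with earlier results of these data known. All 54 genes were described. Of the further ribosome biogenesis genes, the 3 highest and 3 lowest ratios and the polymerase I subunits were named, and any gene of the other lists could be named. Without molecular identifiers reads are not separate molecules, and the intervals and floors reflect the counting of reads alone. The alternatives were other scalings, count minimums and thresholds. Those that leave out overlapping genes or search CCGGAA, and TPM by the length of the canonical transcript, were added after seeing the data. Some genes of the other lists are not reported here.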

Additional observations from a re-analysis of the deposited data

How the results depend on the processing

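With library totals in place of TMM, the median log2 ratio of the 54 genes was 0.36 in RT against Ctrl with 12 genes called higher (8.44% of all genes), 0.12 in RT + shHDAC6 against RT, and 0.45 in RT + shHDAC6 against Ctrl. At a threshold of 1.2-fold, 45 genes were called higher in RT against Ctrl and 47 in RT + shHDAC6 against Ctrl, and 3 were called lower in RT + shHDAC6 against RT. At 2-fold, 4 and 5 genes were called higher in the first and the last of these. Under the other scalings, the other count minimums, another value for counts of 0 and without the interval, these medians kept their sign and these counts stayed within 1.5 times their value, and leaving out the 5 overlapping genes gave a median of 0.55 in RT against Ctrl. Library totals moved the ratio of 52 of the 54 genes in RT against Ctrl beyond its counting interval. In RT + shHDAC6 against RT they moved 36 of the 54 and in RT + shHDAC6 against Ctrl 50. By the length of the canonical transcript in place of all exon bases, NPM1 in Ctrl was at 3396 TPM rather than 882 and NCL at 691 TPM rather than 497, and both remained the most abundant. No paired analysis was possible because each condition has 1 library and the labels give no replicate numbers, and for the same reason no library could be left out. The counting intervals were widest for the genes with the fewest counts, NOP2 and PPAN. Both share exon bases with another gene on the same strand, and the part of this in their low counts was not tested.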
